A study of Mus musculus with 6 samples.

Results

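The genes described here are 10 genes of FGF4-ERK signaling in mouse embryonic stem cells (mESCs): the ligand gene Fgf4, the receptor genes Fgfr1 and Fgfr2, the feedback inhibitor genes Spry2, Spry4, Spred1, Dusp6 and Dusp4, and the transcription factor genes Etv4 and Etv5. They were chosen by gene symbol, as 10 of the 39017 genes in the count tables, and all 10 were found and passed the filter on low counts. The choice was made with the values of both comparisons below already known, so the differences of these genes are given as a description, with a standard error. Calls from the fits over all genes are named for them too, but are not used as a test of these genes. The polyA RNA-Seq data came from 6 libraries in 3 groups of 2. The untreated and the auxin-treated libraries came from Pol II degron mESCs, a homozygous clonal line of V6.5 cells whose RPB1 (the catalytic subunit of Pol II) bears the mAID-GFP tag and in which OsTIR1 is expressed from a doxycycline-inducible cassette. Both groups received 1 μg/ml doxycycline for 12 h, and the auxin-treated cells then received 500 μM auxin (indole-3-acetic acid) for 6 h, which leads to degradation of the tagged RPB1. The wild-type libraries came from V6.5 cells labelled as wild type for Pol2, and whether they received doxycycline or auxin is not given in the sources used here. All cells were grown in serum and LIF with irradiated mouse embryonic fibroblasts as feeders, and the study's methods place the harvest after 2 passages that concern these feeders, without saying how many feeder cells were left. The degron line is 1 clone, and the wild-type counts were deposited apart from those of the degron cells. Whether the libraries were prepared together is not given in the sources used here. Clone, genotype, any difference in doxycycline treatment and any difference in preparation therefore cannot be told apart in the comparison with wild-type cells.

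FGF4 is secreted by pluripotent cells and acts on those cells and their neighbors through FGF receptor tyrosine kinases, with heparan sulfate as a co-receptor. The receptors signal through the adaptor FRS2 and RAS to the kinases RAF, MEK and ERK. ERK activity raises the mRNAs of its own inhibitors, the Sprouty and SPRED proteins, which act near the receptor and RAS, and the DUSP phosphatases, which remove phosphate from ERK, and it raises the ETS factors ETV4 and ETV5. In mESCs this pathway is known for opening the way out of naive pluripotency and for specifying primitive endoderm, and Fgf4 itself is controlled by an enhancer that OCT4 and SOX2 bind together.

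Promoter sequences of some of these genes are shown as a description, and where transcription started was not measured here. RefSeq promoter windows (build GRCm38.p6) were available for 6 of the 10 genes, and the 250 bases before the start are printed for Fgf4 and Spry2, the genes called after auxin, and for Dusp6, whose groups overlapped. Fgf4 is read from the plus strand (chr7:144861136-144861385), Spry2 from the minus strand (chr14:105896820-105897069) and Dusp6 from the plus strand (chr10:99262981-99263230). No GENCODE vM21 exon lies in these windows. The Fgf4 window lies inside the vM21 gene, which begins at chr7:144847367, so its RefSeq start is not the start of that gene model. Capitals mark matches, on either strand, to 5 motifs. These were the GC box (GGGCGG), the CCAAT box with the letters of its name, an ETS motif (CCGGAA), the TATA box (TATAAA) and a TATA-like run (TATATA). The ETS motif is a longer form of the GGAA core that ETS factors read, and GGAA alone was not marked.
Fgf4: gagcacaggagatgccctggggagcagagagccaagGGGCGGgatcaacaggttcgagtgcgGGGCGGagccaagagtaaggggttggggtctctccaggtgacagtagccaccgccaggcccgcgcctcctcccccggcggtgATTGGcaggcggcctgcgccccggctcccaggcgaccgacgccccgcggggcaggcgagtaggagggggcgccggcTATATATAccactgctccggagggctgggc
Spry2: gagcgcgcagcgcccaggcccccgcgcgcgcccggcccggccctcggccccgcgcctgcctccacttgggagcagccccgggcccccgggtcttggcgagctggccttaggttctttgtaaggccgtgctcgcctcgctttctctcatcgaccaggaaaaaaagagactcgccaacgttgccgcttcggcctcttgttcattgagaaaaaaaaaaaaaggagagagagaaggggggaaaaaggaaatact
Dusp6: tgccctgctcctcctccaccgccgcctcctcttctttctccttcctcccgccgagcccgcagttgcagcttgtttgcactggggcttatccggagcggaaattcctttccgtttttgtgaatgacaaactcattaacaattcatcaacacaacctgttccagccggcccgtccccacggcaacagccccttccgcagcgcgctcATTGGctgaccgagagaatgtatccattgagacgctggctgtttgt
The Fgf4 window held 2 GC boxes, 1 CCAAT box and 2 overlapping TATA-like runs that began 30 and 28 bases before the start. The Spry2 window held none of the 5 motifs, and the Dusp6 window held 1 CCAAT box. Among the 32851 RefSeq windows of this length, 32.7% held the GC box, 33.8% the CCAAT box, 12.0% the ETS motif, 12.4% the TATA box and 5.25% the TATA-like run. G and C made up 71.2% of the Fgf4 window, 62.4% of the Spry2 window and 56.4% of the Dusp6 window. These matches describe the letters only, and binding was not measured here.

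The libraries held between 14094022 and 15358714 counts. The cells expressed the pluripotency genes of their label, since the summed level of 10 stem cell markers lay between 4217 and 4829 CPM in the untreated, 3535 and 3751 CPM in the auxin-treated and 7293 and 7344 CPM in the wild-type libraries (CPM, counts per 1000000 after TMM scaling over all 6 libraries). The records of the wild-type libraries mention retinas in the RNA extraction, and the photoreceptor genes Crx and Rcvrn had 0 counts in all 6 libraries. Polr2a, the gene of RPB1, changed on the log2 scale by 0.57 (standard error 0.07) after auxin, which says nothing of the depletion because auxin removes the protein. Mitochondrial mRNAs took between 0.341% and 0.401% of the counts in the untreated, 0.399% and 0.441% in the auxin-treated and up to 1.53% in the wild-type libraries, which lay close together. TMM sets the typical gene as unchanged, so a change shared by most mRNAs would not show, and higher or lower means relative to that gene. When the libraries were scaled to the mitochondrial mRNAs instead of by TMM, the median log2 fold change of all genes was −0.17 after auxin and −2.10 in wild-type cells. On that scale every wild-type difference below is shifted by that amount, and relative to it each of the 10 genes kept the sign it had with TMM.

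Fgf4 was the gene of this group with the largest difference after auxin. Its level was 309 and 352 CPM in the untreated libraries, 178 and 173 CPM in the auxin-treated libraries and 299 and 305 CPM in the wild-type libraries. Both auxin-treated libraries therefore lay well below the other 4, while the wild-type libraries lay just below the untreated ones. After auxin the log2 fold change was −0.90 (standard error 0.08), a level 1.86-fold lower, and it lay between −0.99 and −0.81 when each library was left out in turn. A lower value was found for 4 of the 10999 genes that averaged 100 or more counts. In bulk RNA a lower level can come from fewer cells that express the gene or from less of its RNA in each cell, and these cannot be told apart here. In wild-type cells the log2 fold change of Fgf4 was −0.16 (standard error 0.07). That difference depended on the untreated libraries, since it was −0.03 without untreated replicate 2 and −0.24 without untreated replicate 1. Fgf4 lies on the plus strand of chromosome 7 in mm10, and in the GENCODE vM21 annotation (chr7:144847367-144865243) no exon of another gene overlaps its 4 merged exons.

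**Figure D1:**
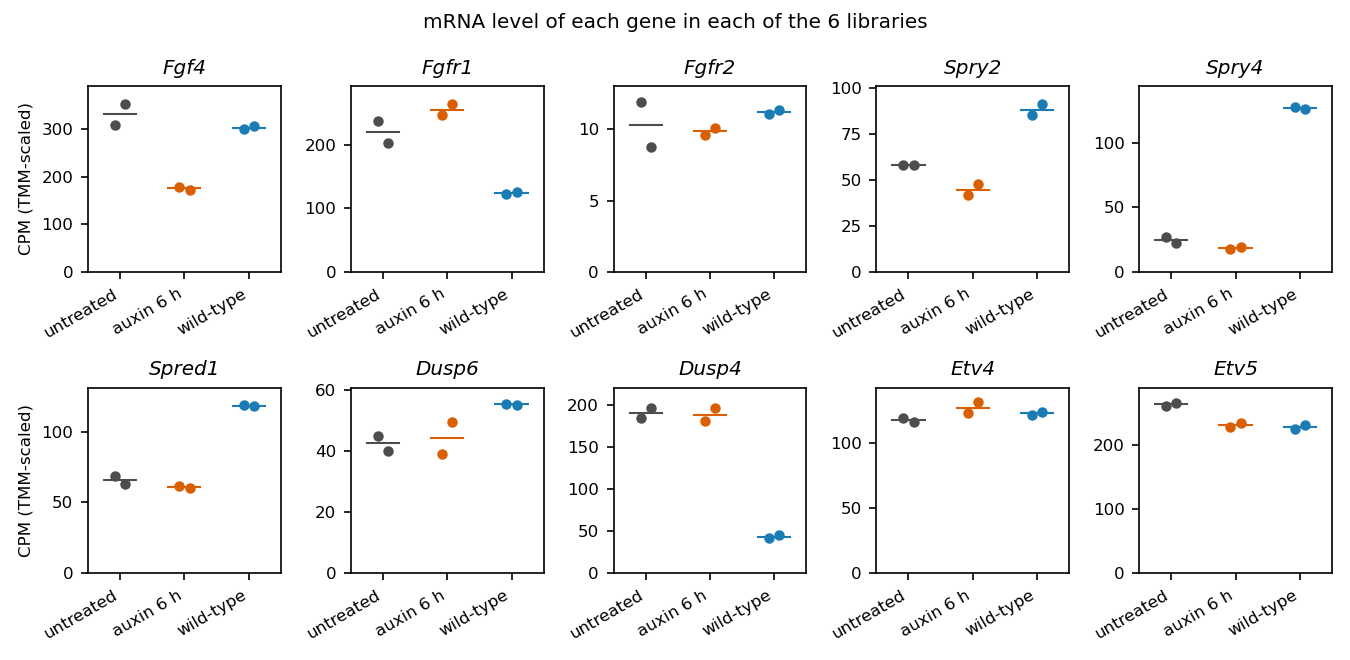
Level of each of the 10 genes in CPM (TMM-scaled, axis from 0) in each library, with 2 points per group and a bar at their mean. Fgf4 lies between 173 and 178 CPM in the auxin-treated libraries against 309 and 352 CPM untreated, while Spry4 stands at 126 and 128 CPM and Dusp4 at 41.4 and 45.1 CPM in the wild-type libraries, far from the degron cells.

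The factors that bind the Fgf4 enhancer did not share 1 pattern. Sox2 had 5390 and 6474 counts in the untreated, 3603 and 3815 in the auxin-treated and 10739 and 10563 in the wild-type libraries. In edgeR's quasi-likelihood test, adjusted by Benjamini-Hochberg, it fell after auxin (log2 fold change −0.78, standard error 0.09, adjusted p = 0.000482) and was higher in wild-type cells (0.86, standard error 0.08, adjusted p = 2.87e-06), although −1.23 on the mitochondrial scale. Pou5f1, which encodes OCT4, had between 10625 and 13854 counts in the 6 libraries, with log2 fold changes of 0.08 after auxin (adjusted p = 0.689) and 0.02 in wild-type cells (adjusted p = 0.835) from the same edgeR test. For Pou5f1 the untreated libraries differed by more than the groups did, and without untreated replicate 2 it was called higher in both comparisons (0.20 and 0.18, adjusted p = 0.021 and 0.00417 from that edgeR test). Among the 10968 genes that averaged 100 or more counts over the 6 libraries, the one whose profile over the 6 libraries was most like that of Fgf4 was Zfp42, also known as Rex1 and a marker of naive pluripotency. The root mean square difference between the profiles was 0.157 on the log2 scale, each centered on its untreated mean. Alkbh1, Arhgap30, Gtsf1l and Ccdc160 followed, with differences between 0.185 and 0.228. Zfp42 averaged −0.67 in the auxin-treated and −0.15 in the wild-type libraries on this scale, where Fgf4 averaged −0.91 and −0.13. Nothing was tested on these profiles, and 6 libraries give little to tell them apart.

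Of the receptor genes, Fgfr1 was lower in wild-type cells, and Fgfr2 overlapped between the groups. FGFR1 is the receptor found on the pluripotent cells, and FGFR2 is the one that marks primitive endoderm. Fgfr1 was at 237 and 203 CPM in the untreated, 247 and 263 CPM in the auxin-treated and 122 and 126 CPM in the wild-type libraries. The groups did not overlap, with the auxin-treated libraries just above and the wild-type libraries far below the untreated ones. The log2 fold change of Fgfr1 was 0.23 (standard error 0.08) after auxin and −0.86 (standard error 0.08) in wild-type cells, where the level was 1.81-fold lower. Its value after auxin was 0.35 without untreated replicate 1, 0.12 without untreated replicate 2 and 0.05 on the mitochondrial scale. An exon of Gm16159 overlaps Fgfr1 (chr8:25513654-25575718, plus strand) on the opposite strand.

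Fgfr2 had the lowest level per length of the 10 genes. It had 172 and 128 counts in the untreated, 154 and 158 in the auxin-treated and 156 and 161 in the wild-type libraries, and the groups overlapped in both comparisons. The log2 fold changes of Fgfr2 were −0.05 after auxin and 0.09 in wild-type cells, each with a standard error of 0.17, so a difference of that size was not detectable at this depth, and on the mitochondrial scale the value in wild-type cells was −2.02. In the vM21 annotation Fgfr2 (chr7:130162451-133123350, minus strand) is overlapped on the same strand by an exon of Ctbp2, which makes its count and its length uncertain. Markers of primitive endoderm, the lineage in which Fgfr2 is known to be used, were counted beside it. Of 7 such markers, all 7 were called higher in wild-type cells by edgeR (29.9% of all tested genes were) and 4 by DESeq2. Their summed level was 27.3 and 29.2 CPM in the untreated, 29.4 and 30.2 CPM in the auxin-treated and 65.0 and 67.3 CPM in the wild-type libraries. Their part in the differences of the other genes was not tested.

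Both Sprouty genes were lower in the auxin-treated and higher in the wild-type libraries than in the untreated libraries, which both comparisons share, although on the mitochondrial scale the wild-type value of Spry2 turned negative. Sprouty proteins are induced by ERK and hold back signaling between the receptor and RAS. Spry2 was at 57.9 and 58.2 CPM in the untreated, 41.5 and 47.7 CPM in the auxin-treated and 85.1 and 91.0 CPM in the wild-type libraries. The groups were well apart, with the auxin-treated libraries lowest. The log2 fold change of Spry2 was −0.36 (standard error 0.08) after auxin, with −0.28 when auxin-treated replicate 1 was left out and the call was lost. In wild-type cells it was 0.57 (standard error 0.07), although −1.53 on the mitochondrial scale.

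Spry4 showed the largest difference of the 10 genes in wild-type cells. It was at 27.2 and 22.3 CPM in the untreated, 17.5 and 19.2 CPM in the auxin-treated and 128 and 126 CPM in the wild-type libraries. The wild-type libraries were far above the other 4, and the auxin-treated ones lay just below the untreated ones. In wild-type cells the level of Spry4 was 5.04-fold higher (log2 fold change 2.33, standard error 0.09), and 56 of the 10842 genes that averaged 100 or more counts had a higher value. Its difference stayed above 0 on the mitochondrial scale, at 0.23. After auxin the log2 fold change was −0.41 (standard error 0.12), from −0.55 without untreated replicate 2 to −0.27 without untreated replicate 1.

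Spred1 encodes an inhibitor that recruits neurofibromin, a RAS GTPase activating protein, to the membrane. It was at 68.6 and 63.2 CPM in the untreated, 61.5 and 59.9 CPM in the auxin-treated and 118 CPM in both wild-type libraries. The auxin-treated libraries fell just under the untreated range, and the wild-type ones were clearly above it. The log2 fold change of Spred1 was −0.10 (standard error 0.07) after auxin and 0.81 (standard error 0.07) in wild-type cells, although −1.29 on the mitochondrial scale.

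Dusp6 was higher and Dusp4 lower in wild-type cells with TMM scaling, although on the mitochondrial scale both were lower. DUSP6 acts on ERK in the cytoplasm and is widely used as a readout of FGF signaling. Dusp6 was at 45.0 and 40.1 CPM in the untreated, 39.0 and 49.5 CPM in the auxin-treated and 55.4 and 55.2 CPM in the wild-type libraries. The untreated libraries lay between the auxin-treated ones, and the wild-type libraries lay above all others. The log2 fold change of Dusp6 was 0.07 (standard error 0.11) after auxin, where its sign turned with the library left out (−0.11 without auxin-treated replicate 2 and 0.22 without replicate 1). In wild-type cells it was 0.35 (standard error 0.08), although −1.75 on the mitochondrial scale. The genes with a profile most like that of Dusp6 over the 6 libraries were B3gntl1, Rhno1, Ckap4, G6pdx and Exoc8, with root mean square differences between 0.0418 and 0.0571 on the log2 scale.

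Dusp4 encodes a nuclear phosphatase of ERK and related kinases. It was at 184 and 196 CPM in the untreated, 181 and 196 CPM in the auxin-treated and 41.4 and 45.1 CPM in the wild-type libraries. The untreated and auxin-treated libraries overlapped, and the wild-type libraries were far below both. After auxin the log2 fold change of Dusp4 was 0.00 (standard error 0.07). In wild-type cells it was −2.17 (standard error 0.07), a level 4.49-fold lower, and 74 of the 10842 genes that averaged 100 or more counts had a lower value. Dusp4 lies on the plus strand of chromosome 8 (chr8:34807297-34819894), and no exon of another gene overlaps it.

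Etv4 and Etv5 encode ETS transcription factors of the PEA3 family that FGF signaling induces. Etv4 was at 119 and 116 CPM in the untreated, 123 and 132 CPM in the auxin-treated and 122 and 124 CPM in the wild-type libraries. Neither other group overlapped the untreated one, but all 6 libraries lay close to each other. The log2 fold change of Etv4 was 0.13 (standard error 0.07) after auxin, although −0.04 on the mitochondrial scale, and 0.03 (standard error 0.06) in wild-type cells, although −0.03 with library totals as the scaling and −2.07 on the mitochondrial scale. Med15, Cdc37, Spg7, Des and Nsfl1c had the profiles most like that of Etv4, with root mean square differences between 0.0297 and 0.0328 on the log2 scale.

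Etv5 was at 261 and 266 CPM in the untreated, 227 and 234 CPM in the auxin-treated and 226 and 231 CPM in the wild-type libraries. Both other groups were below the untreated one. For Etv5 the log2 fold change was −0.17 (standard error 0.07) after auxin and −0.24 (standard error 0.06) in wild-type cells, where the call was lost without wild-type replicate 1 (−0.18).

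**Figure D2:**
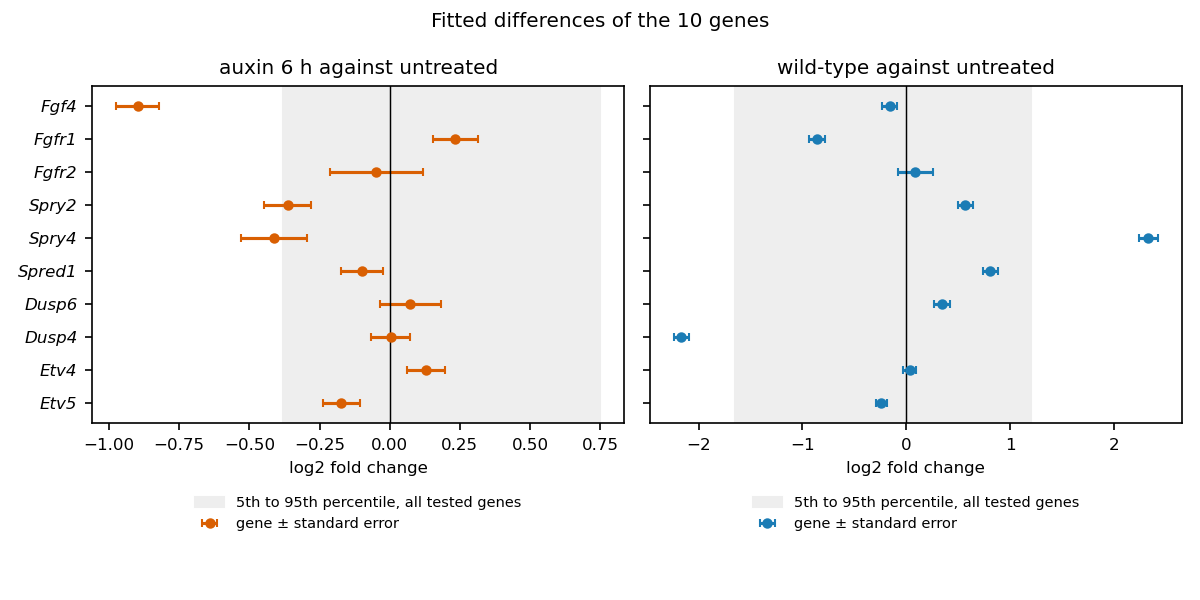
Fitted log2 fold changes of the 10 genes with their standard errors, auxin-treated (left) and wild-type (right) against untreated, and in gray the range from the 5th to the 95th percentile of all tested genes (−0.38 to 0.75 and −1.65 to 1.20, TMM scaling). Fgf4 and Spry4 lie below the gray range after auxin, and Spry4 and Dusp4 lie outside it on opposite sides in wild-type cells, where on the mitochondrial scale the axis would be shifted by −2.10.

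By edgeR's quasi-likelihood test at an adjusted p under 0.05, 2 of the 10 genes were called lower after auxin (Fgf4 and Spry2) and 0 higher, and DESeq2 called 1 lower (Fgf4) and 0 higher. Across all tested genes 1.64% were called lower and 2.56% higher. The auxin-treated and untreated libraries did not overlap for 7 of the 10 genes, 5 lower and 2 higher, and for 50.8% of all tested genes. The median log2 fold change of the 10 genes was −0.07, and that of all tested genes was −0.0004. In all, 677 genes were called with the 4 libraries of this comparison and 1235 with all 3 groups in one fit, the form in which libraries were left out. Against that 1235, 2511 genes were called without untreated replicate 1, 170 without auxin-treated replicate 1 and 141 without auxin-treated replicate 2. With all 3 groups Fgf4, Spry2, Spry4 and Etv5 were called, all lower. Without untreated replicate 1 Fgfr1 was called (higher) and Spry4 was not, without untreated replicate 2 Etv5 was not, without auxin-treated replicate 1 Fgf4 alone was called, and without auxin-treated replicate 2 Fgf4 and Spry2 were. In wild-type cells 4 of the 10 genes were called higher (Spry2, Spry4, Spred1 and Dusp6) and 3 lower (Fgfr1, Dusp4 and Etv5), on a background in which 29.9% of all tested genes were called higher and 30.7% lower. On the mitochondrial scale 0 of the 10 genes were called higher and 9 lower, all but Spry4, on a background of 73 genes higher and 15235 lower. The libraries did not overlap for 9 of the 10 genes, all but Fgfr2, and for 81% of all tested genes. The members were chosen with these values known, so nothing is read from the counts.

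**Figure D3:**
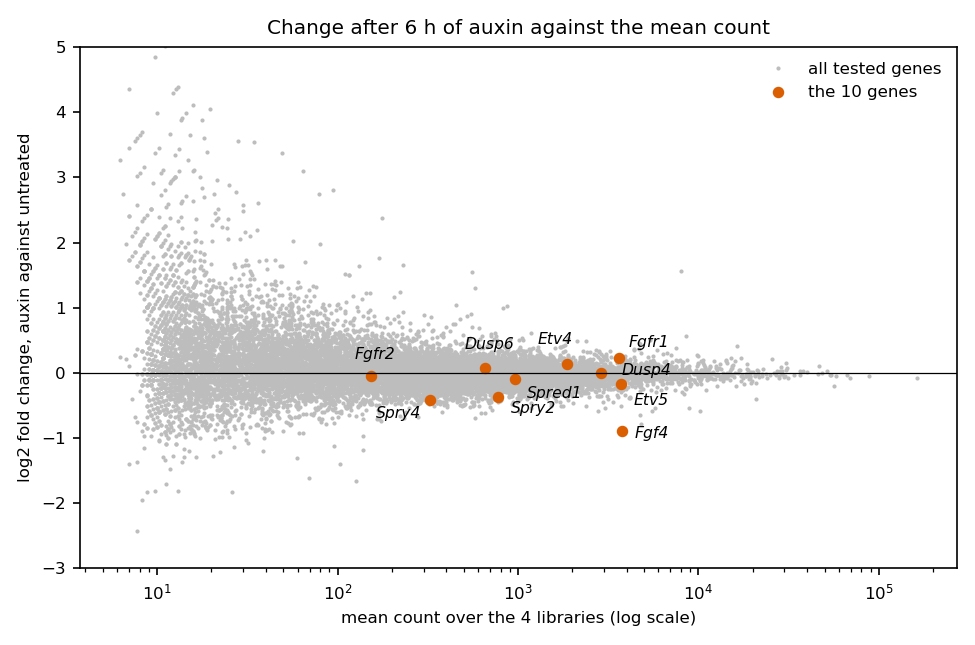
Log2 fold change after auxin (TMM scaling) against the mean count of the 4 libraries (log scale) for the tested genes (gray) and the 10 genes (orange), with 5 tested genes outside the plotted range from −3 to 5. The gray cloud narrows with the count, Fgf4 at −0.90 lies below it among well-counted genes, and Dusp4, Etv4, Spred1 and Dusp6 lie within it.

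Levels were compared between genes per kilobase of merged exon (CPM per kb). That length is uncertain for Fgfr2, and for Fgf4, whose vM21 gene begins before its RefSeq start. In the untreated cells the order was Fgf4 (104 ± 9.52 CPM per kb, SD, n = 2), Dusp4 (69.4 ± 3.17), Etv5 (64.2 ± 0.891), Etv4 (37.9 ± 0.771), Spry2 (27.8 ± 0.107), Fgfr1 (22.2 ± 2.45), Dusp6 (13.6 ± 1.12), Spred1 (9.71 ± 0.566), Spry4 (5.20 ± 0.725) and Fgfr2 (1.00 ± 0.217). No neighbors in this order overlapped. After auxin Dusp4 came first at 68.7 ± 3.90 CPM per kb (SD, n = 2), and Etv5 (56.3 ± 1.22) and Fgf4 (54.8 ± 1.12) followed with overlapping values. Spry2, at 21.4 ± 2.12 CPM per kb (SD, n = 2), and Fgfr1, at 25.8 ± 1.19, exchanged their places after auxin, and the order of the other genes was that of the untreated cells. In wild-type cells Fgf4 was first again at 94.6 ± 1.36 CPM per kb (SD, n = 2), and Dusp4 had moved to the eighth place at 15.8 ± 0.944. Spry4, at 26.8 ± 0.259 CPM per kb (SD, n = 2), stood above Dusp6 and Spred1 there, which lay close together at 17.7 ± 0.0602 and 17.4 ± 0.0697. Of these 5 feedback genes Dusp4 had the highest level per length in both groups of degron cells, and Spry2 had it in wild-type cells.

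**Figure D4:**
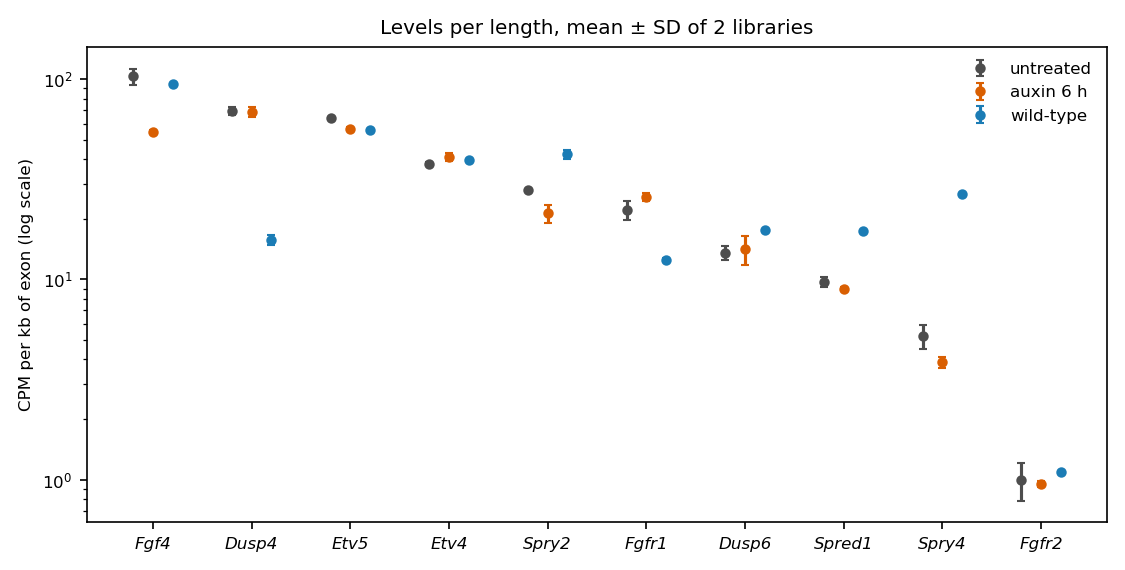
Levels of the 10 genes in CPM per kb of exon (log scale), as the mean of 2 libraries per group with the SD as error bars, ordered by the untreated level. Fgf4 stands at 104 in untreated and 54.8 CPM per kb in auxin-treated cells, and the wild-type points of Dusp4 (15.8) and Spry4 (26.8) lie farthest from those of the degron cells.

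The rest of the pathway was described by 6 lists with 96 genes, of which 82 were tested in each comparison. After auxin edgeR's quasi-likelihood test called 1 of them higher and 0 lower (1.22%, beside 4.2% of all tested genes). Their median log2 fold change was 0.03. At an unadjusted p under 0.05 10 were higher and 6 lower, and DESeq2 called 0. The gene called was Spred3, a SPRED family inhibitor, with 450 and 403 counts before auxin and 578 and 654 after it. Its log2 fold change was 0.43 (standard error 0.10, adjusted p = 0.0332 from edgeR with Benjamini-Hochberg adjustment). That call was not held by DESeq2 (0.42, adjusted p = 0.186), or by edgeR with no filter (0.41, adjusted p = 0.17) or on the mitochondrial scale (0.25, adjusted p = 0.614). Nor was it held without untreated replicate 2 (0.34), without auxin-treated replicate 1 (0.51) or without auxin-treated replicate 2 (0.31). Over the alternatives the adjusted p of Spred3 lay between 0.00013 and 0.614. None of the 11 tested FGF ligands, 17 receptors and co-receptors, 15 adaptor and RAS cycle genes, 12 RAF-MEK-ERK kinases and scaffolds and 15 further ERK-dependent factors and targets was called after auxin by this test.

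In wild-type cells 31 of the 82 tested genes were called higher and 27 lower (70.7%, beside 60.6% of all tested genes), with a median log2 fold change of 0.04. Among the ligands 3 were called higher and 4 lower of 11. Fgf17 had 126 and 158 counts in the untreated and 353 and 344 in the wild-type libraries (log2 fold change 1.31, standard error 0.13), and Fgf1 had 210 and 141 against 44 and 42 (−2.02, standard error 0.23), with adjusted p of 4.89e-06 and 2.02e-05 from edgeR. Of 18 receptors and co-receptors 9 were higher and 6 lower. Sdc4, a heparan sulfate proteoglycan that presents FGFs, was higher by 1.14 (standard error 0.08), and Gpc6, a glypican, was lower at −1.11 (standard error 0.23). Of 15 adaptors and RAS cycle genes 6 were higher and 3 lower, with Sos1, a RAS exchange factor, at 0.69 (standard error 0.07) and Shc1, an adaptor, at −1.33 (standard error 0.08). Of 12 kinases and scaffolds 5 were higher and 2 lower, and Rps6ka1 (an ERK-activated kinase) at 0.61 and Braf at 0.59 differed most among the well-counted ones. Of 14 further ERK-dependent factors and targets 4 were higher and 4 lower, among them the lower Phlda1 (−1.51, standard error 0.13) and Ets1 (−1.24, standard error 0.12). On the mitochondrial scale the higher values of Fgf17, Sdc4, Sos1, Rps6ka1 and Braf turned negative.

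The other feedback inhibitors were all called in wild-type cells by edgeR's quasi-likelihood test (Benjamini-Hochberg), 4 higher and 8 lower of 12 tested. Among all tested genes 60.6% were called there. DESeq2 called 4 of the inhibitors higher and 7 lower. Grouped by where the phosphatases act, a grouping made after the values were seen, the cytoplasmic ERK phosphatases Dusp7 (log2 fold change 0.36, adjusted p = 0.00594) and Dusp9 (0.20, adjusted p = 0.018) were higher, as Dusp6 was, with TMM scaling, while on the mitochondrial scale they stood at −1.73 and −1.91. The inducible nuclear phosphatases Dusp1 (−0.58, adjusted p = 3.31e-05), Dusp2 (−1.16, adjusted p = 0.0121) and Dusp5 (−1.22, adjusted p = 8.14e-06) were lower, as Dusp4 was. Dusp3 (−0.75, adjusted p = 2.26e-05) and Dusp14 (−1.15, adjusted p = 4e-04), small phosphatases outside the inducible nuclear group, were lower too, so lower levels were not particular to that group. The Sprouty and SPRED genes were split. Spry1 (0.40, adjusted p = 0.00405) and Spred2 (0.49, adjusted p = 4.68e-05) were higher, as Spry2, Spry4 and Spred1 were, although they stood at −1.69 and −1.60 on the mitochondrial scale. Spred3 (−1.87, adjusted p = 2.26e-07) was lower, with 109 and 122 counts against 450 and 403 in the untreated libraries.

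**Figure D5:**
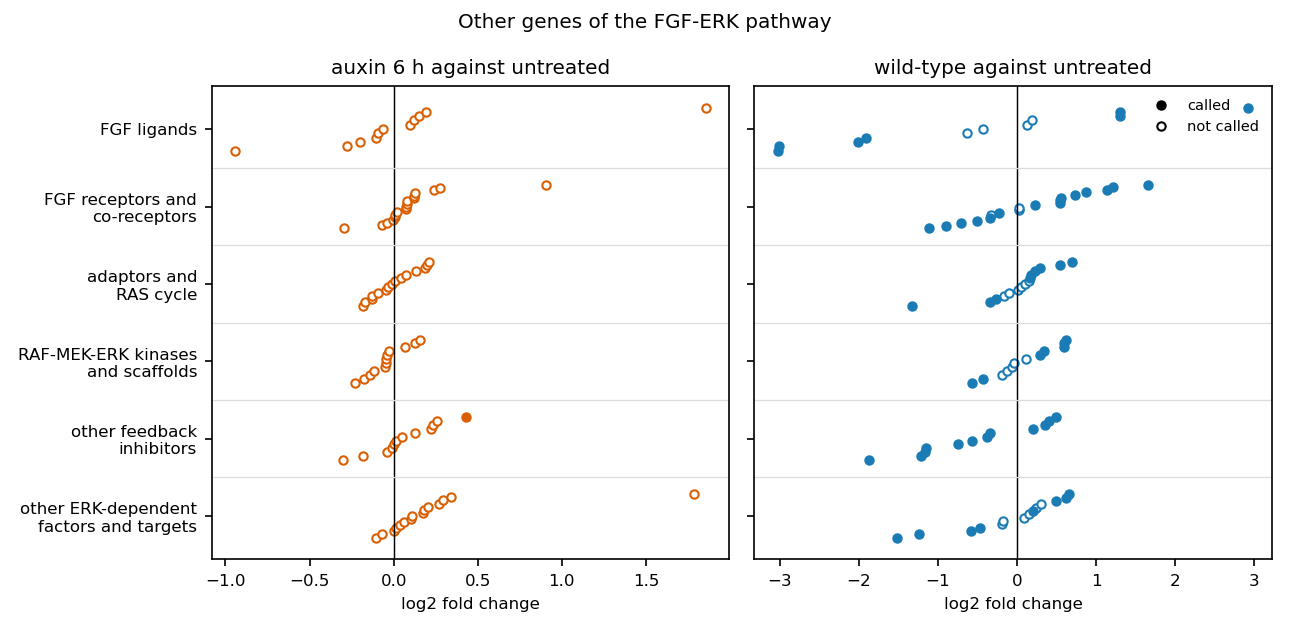
Log2 fold changes (TMM scaling) of the tested genes of 6 lists of the FGF-ERK pathway, auxin-treated (left) and wild-type (right) against untreated, with filled points for genes called at an adjusted p under 0.05. After auxin Spred3 is the 1 filled point, and in wild-type cells 58 points are filled on both sides of 0, a split that would shift by −2.10 on the mitochondrial scale.

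Marker genes of the feeder fibroblasts were described as well. Of 10 feeder markers, 8 were tested, and their summed level was 200.4 and 197 CPM in the untreated, 223 and 252 CPM in the auxin-treated and 148 and 154 CPM in the wild-type libraries. Col1a2 was called higher after auxin (log2 fold change 0.36, adjusted p = 0.022 from edgeR), while DESeq2 called 0 of the feeder markers there. The levels of these markers differed widely. Dcn and Lum had at most 4 counts in any library, while Col1a1 had between 915 and 1380 and Col1a2 between 567 and 1413. In the wild-type libraries edgeR called 5 of the feeder markers lower and 1 higher, and DESeq2 called 5 lower and 0 higher. The part of any feeder cells in the differences of the other genes was not tested. Of the 10 stem cell markers, 4 (Sox2, Nanog, Zfp42 and Esrrb) were called lower after auxin, and in wild-type cells 7 were called higher and 1 lower. Across all tested genes edgeR called 2.56% higher and 1.64% lower after auxin, and 29.9% higher and 30.7% lower in wild-type cells. Of 6 markers of primed pluripotency, the state toward which ERK activity moves mESCs, 5 were tested after auxin, with 0 called by edgeR or DESeq2 and 1 higher at an unadjusted p under 0.05, and 2 were called higher in wild-type cells by edgeR. Their summed level was between 131 and 140.3 CPM in the degron libraries and 179 and 185 CPM in the wild-type libraries. Much of that sum was Dnmt3b, which averaged 88.4 CPM in the untreated and 125 CPM in the wild-type libraries. The 2 called were Otx2 and Dnmt3b. Fgf5 went the other way, with 4 and 7 counts in the untreated and 1 and 0 in the wild-type libraries, and Zic2 was at −0.002.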

How the data were processed

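PolyA RNA-Seq of 6 libraries was analysed. The authors aligned paired reads to mm10 with HISAT2 2.1.0, counted them per GENCODE gene with Salmon and HTSeq, and deposited whole-number counts of 39017 genes without normalization, with the wild-type libraries in a table of their own. The annotation release and the strand setting are not given in the sources used here. The deposited columns of fold changes and p-values of the authors' comparison were not used, nor were 2 columns of per-sample values that match no sample. The study's supplement names biological replicates for its high-throughput experiments in general, but neither it nor the labels say how the replicates of these libraries were made, so p-values measure the spread between these libraries. Both comparisons share the untreated libraries.

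Each comparison was fitted on its 4 libraries with edgeR 4.0.16 in R 4.3.3 (filterByExpr with a minimum count of 10, TMM, glmQLFit and glmQLFTest, Benjamini-Hochberg adjustment, prior count of 0.125), with calls at an adjusted p under 0.05. The procedure was tested on simulated data. TMM sets the typical gene as unchanged. Levels are CPM after TMM over all 6 libraries, divided by merged GENCODE vM21 exon length where genes are compared. Alternatives were DESeq2 1.42.0 and other scalings, filters, fits and left-out libraries.

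The genes and lists were chosen with earlier results of these data known. Named genes were the 10 genes, the genes of 6 pathway lists called after auxin, the 2 with the largest difference in wild-type cells per list among called genes that averaged 100 or more counts, Pou5f1 and Sox2, and the 5 genes closest in profile to Fgf4, Dusp6 and Etv4. The other feedback inhibitors, markers and alternatives named beside them were chosen after their values were seen.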

Additional observations from a re-analysis of the deposited data

How the results depend on the processing

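In the auxin comparison the number of genes called, 677 by edgeR, was 236 with DESeq2, 55 with no filter, 432 with at least 10 counts in every library, 219 on the mitochondrial scale (167 higher and 52 lower), 1235 with all 3 groups in one fit and, in fits of that form, from 141 to 2511 with 1 library left out. The other pathway genes called, 1 with edgeR, numbered 0 with DESeq2, with no filter and on the mitochondrial scale, 3 with all 3 groups in one fit and, against that 3, from 0 to 18 with 1 library left out. Of the 10 genes 2 were called by edgeR, 1 (Fgf4) with DESeq2, with no filter and on the mitochondrial scale, 4 with all 3 groups in one fit and, against that 4, from 1 to 4 with 1 library left out. With the replicate number as a replicate block, 1930 genes, 11 other pathway genes and 4 of the 10 genes were called after auxin. Nothing in the labels says that equal numbers mark a shared culture, and the deviations of same-numbered libraries from their group means correlated at 0.110 in the auxin and −0.06 in the wild-type comparison, so the numbers were not taken to pair the libraries. The cause of these shifts was not tested. In the wild-type comparison the mitochondrial scale gave 15308 calls against 9555, and the other alternatives moved the counts of calls by at most 1.5 times. These counts on the mitochondrial scale were added after the data were seen. Scaling to mitochondrial mRNAs moved the share of calls that were higher from 61.0% to 76.3% after auxin and from 49.3% to 0.477% in wild-type cells, and reversed the log2 fold change there of Spry2 (−1.53), Spred1 (−1.29), Dusp6 (−1.75), Fgf17 (−0.78), Sdc4 (−0.96), Sos1 (−1.41), Rps6ka1 (−1.48), Braf (−1.51), Pou5f1 (−2.07) and Sox2 (−1.23). Fgfr2 (−2.02) and Etv4 (−2.07), not called with TMM, also turned negative there. Leaving out a library leaves 1 in its group, which is assumed to vary like the other groups of a fit over all 3. With 2 libraries per group, genes with few counts such as Fgfr2 are known less well.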
